A study of Rattus norvegicus with 12 samples.

Results

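Proliferative and differentiated rat PAC1 cells were compared across the whole transcriptome. PAC1 is a cell line of pulmonary artery smooth muscle, and its culture regime shifts it between a more contractile state (PAC1-D) and a faster growing state (PAC1-P). The comparison took in all 3 libraries labelled P and all 3 labelled D1, 6 of the 12 libraries in the series, and 16814 of the 33294 genes in the count table had enough counts to be tested. The D1 cells had been passaged 1 time per week at 1:10, whereas the P cells had been passaged 2 times per week at 1:20, both in the same serum-containing medium. Both groups received 90 pmol of a control siRNA in a reverse transfection and again after 24 h, and RNA was collected 48 h after that according to the labels. The study's methods state later times and other cell numbers, which differ between the groups, so that seeding, passage history and cell state cannot be told apart here. All cells are of 1 line. The labels do not say whether the 3 libraries of a group came from separate cultures, while the study's methods speak of independent biological replicates for its experiments in general. The p-values measure the spread between these libraries.

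Smooth muscle cells of the vessel wall do not differentiate terminally. In the contractile state, serum response factor (SRF) binds CArG boxes together with myocardin and turns on genes for actin, myosin and the dense bodies to which filaments attach. Cells that leave this state lose much of that apparatus, divide, migrate and deposit a different extracellular matrix, a change that is studied in atherosclerosis, restenosis and pulmonary hypertension. Because bulk RNA was sequenced, fewer cells of a kind and less RNA per cell cannot be told apart.

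Poly(A) RNA was sequenced, and counts per gene were used as deposited. Total counts lay between 86972422 and 87527111 in the P libraries and between 90196960 and 90725021 in the D1 libraries. Values below are scaled counts, that is, counts divided by each library's effective size relative to the geometric mean of the 6 libraries. They compare 1 gene between libraries and not different genes with each other, since gene length was not taken into account. A gene was called higher or lower in P at an adjusted p under 0.05 and a fold change above 2 (quasi-likelihood F-test of edgeR, p-values adjusted over all genes tested by the method of Benjamini and Hochberg). Means are given ± SD of the 3 libraries. Fold changes are given as log2 of P over D1 with their standard error (SE), and are below 0 for genes lower in P.

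Genes lower in P cells included most of the actin apparatus and many Hox genes. Those higher in P included many MHC (RT1) genes and many of the interferon response and of glycolysis. Matrix genes were called in both directions, and few genes of mitosis, respiration or the ribosome passed the fold threshold. Of the 16814 genes, 4641 were called (27.6%), 2758 of them higher in P (16.4%) and 1883 lower in P (11.2%). The higher genes made up 59.4% of the calls, but 45.4% when the libraries were quantile-normalized in place of TMM, with 2232 genes higher and 2682 lower. The groups did not overlap in 79.1% of all tested genes, so that separation of the libraries is by itself a weak criterion here. Without regard to size, 13103 genes had an adjusted p under 0.05, and the median size of the log2 fold change over all tested genes was 0.46.

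The share of genes called was highest at low levels. Beyond a fitted 8-fold change there were 1173 genes higher and 328 lower in P, and beyond 32-fold 620 and 92, but the fitted values of genes at or under 3 counts in a group depend on the prior count. Among genes with a mean above 3 counts in both groups there were 531 and 228 beyond 8-fold, and 162 and 38 beyond 32-fold. Among genes with a mean under 100 scaled counts 48.0% were called, 66.9% of them higher in P. Above 10000 scaled counts 16.3% were called, and only 37.8% of these were higher. Absence from all D1 libraries with at least 100 counts in each P library was seen in 75 genes, and the converse in 6. The plot of fold change against level shows this asymmetry as an upper fringe of genes with no D1 count.

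**Figure D1:**
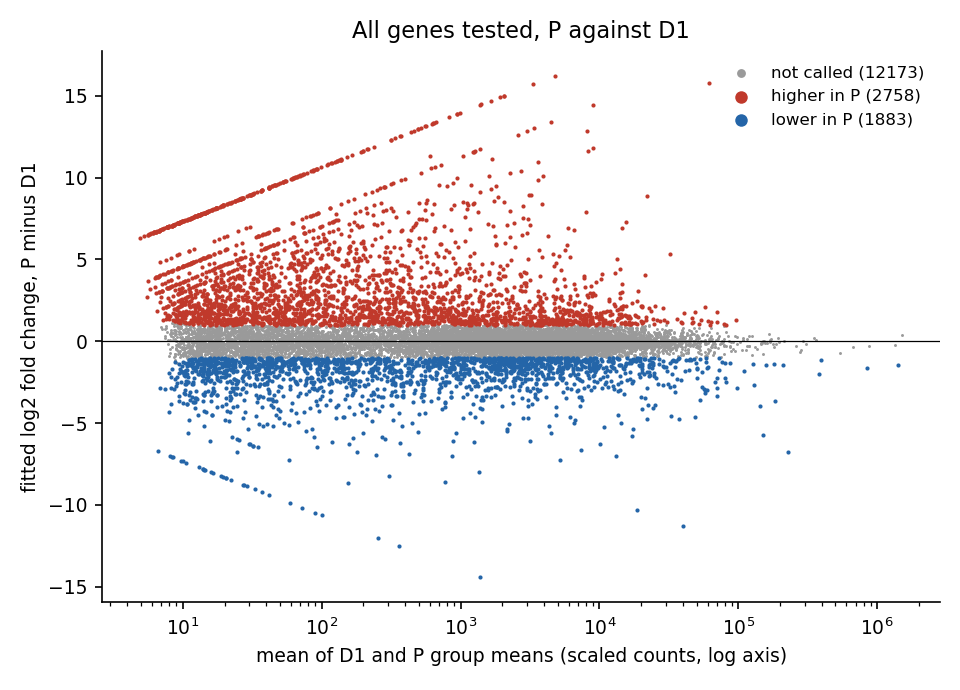
Fitted log2 fold change of P minus D1 (y axis) against the mean of the 2 group means in scaled counts (x axis, log scale) for all 16814 genes tested, 1 point a gene. Red points are the 2758 genes called higher in P, blue points the 1883 called lower and grey points the 12173 not called; the sloping upper edge is made of genes with no count in D1, whose fitted values depend on the prior count.

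Single genes outside the pathways below also changed by large amounts. Among genes with at least 10 scaled counts in each group, the largest rise was that of Ccdc88c, which binds Dishevelled, with 10.4, 12.6 and 14.5 scaled counts in the D1 libraries and 6219, 6159.6 and 6216 in the P libraries (log2 fold change 8.94, SE 0.081, adjusted p = 1.0e-39). Further rises of this size were those of the kinase Map3k9, from 11.1 to 4117, the cartilage matrix protein Cilp2, from 22.6 to 7671, Mamstr, a coactivator of MEF2, from 17.7 to 4489, Mdfi, an inhibitor of myogenic factors, from 11.1 to 2664, and the corepressor Cbfa2t3, from 10.8 to 2133. The largest falls included Spon1, a secreted adhesion protein, with 9978, 11089 and 9900.1 scaled counts in the D1 libraries and 68.8, 65.5 and 63.5 in the P libraries, the monoamine transporter Slc29a4, from 1735 to 13.1, the muscle F-box protein Fbxo40, from 2690.5 to 10.2, and the adhesion molecule Lsamp, from 2469.6 to 34.6.

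The 9 libraries of PAC1-D cells in the series, 6 of them with knockdowns that carry their own changes, gave a wider reference. In 2481 of the 2758 genes called higher (90.0%), all 3 P libraries lay above all 9 of these libraries, and in 1675 of the 1883 called lower (89.0%) all lay below. Over all tested genes the P libraries lay outside the range of the 9 in 55.3%.

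Few genes that act in mitosis or DNA replication passed the fold threshold. Of 40 genes for mitosis and cytokinesis, none was called. The log2 fold changes of this list lay between -0.84 and 0.72, and their median was 0.016. Adjusted p-values were nevertheless under 0.05 for 31 of them, since libraries of a group differed so little. Mki67, the proliferation marker Ki-67, had 22003, 21011 and 21829.5 scaled counts in the D1 libraries and 30806, 31541 and 30342 in the P libraries. It was higher in every P library, but by less than the fold threshold (log2 fold change 0.52, SE 0.025, adjusted p = 6.7e-19). Cdk1, the kinase that drives entry into mitosis, had 7369, 7421 and 7559.6 scaled counts in the D1 libraries and 7829, 7513 and 7495 in the P libraries, and these ranges overlapped. For cyclin B1, its partner encoded by Ccnb1, the group means were 6130.2 ± 83.8 in D1 and 6988 ± 295 in P (SD, n = 3 each), a log2 fold change of 0.19.

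Genes of DNA replication moved in both directions. Their log2 fold changes lay between -0.69 and 1.26, 28 above 0 and 13 below. The median was 0.18, against 0.020 for all genes. Only 2 of 41 were called, both higher in P (4.88%, beside 16.4% of all genes). These were the primase subunit Prim1, with 3224, 3162 and 3236 scaled counts in the D1 libraries and 7871, 7656 and 7481 in the P libraries, and Pola1, the catalytic subunit of DNA polymerase alpha, with a log2 fold change of 1.04 (SE 0.033). Both belong to the enzyme that lays down primers. Mcm2 of the replicative helicase and the sliding clamp Pcna had log2 fold changes of 0.51 and 0.20, and the ribonucleotide reductase subunit Rrm2 one of -0.25, none past the fold threshold.

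G1 regulators moved in both directions, with 4 of 29 called higher (13.8%) and 5 lower (17.2%) in P, a share called that is near the 27.6% of all genes. Cyclin D1 (Ccnd1), which couples mitogen signals to the cell cycle, had 31883, 29245 and 31911 scaled counts in the D1 libraries and 77079.9, 76111 and 76292 in the P libraries (log2 fold change 1.30, SE 0.027, adjusted p = 2.3e-29). The Cdk inhibitor p21 (Cdkn1a) moved the opposite way, with 20445, 20497 and 20912 scaled counts in the D1 libraries and 5902, 5749 and 5642 in the P libraries (log2 fold change -1.84, SE 0.027, adjusted p = 6.5e-34). Neither gene's groups overlapped. Cyclin D2 (Ccnd2) was also higher in P, at 737 against 215 scaled counts, as was Cdk6, the kinase bound by D cyclins, at 22469.6 against 10818. Cyclin E1 (Ccne1) was lower, at 1142 against 3720.5. The growth regulators Myc and Mycn were lower in P as well, with log2 fold changes of -2.60 (SE 0.042) and -4.16 (SE 0.16). Myc had 6836, 6997 and 6832 scaled counts in the D1 libraries and 1043, 1216 and 1149 in the P libraries. E2f5, an E2F factor that partners with pocket proteins to repress genes, fell from 7085 to 1167.

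Promoter sequence is shown for a pair of mitotic genes, whose list shares motifs, and further on for contractile genes. Windows of 300 bases, from 250 before to 50 after the annotated start, came from RefSeq on the GRCr8 build, and 11991 of the tested genes had one. The motifs were searched on both strands. TTTGAA, the core of the cell cycle homology region through which mitotic genes are kept off outside the cycle, was found in 70.6% of 34 mitotic promoters and in 18.1% of all 27457 promoters. CCAAT, the site bound by NF-Y, was found in 73.5% and 37.7%, and both together in 19 of the 34 and in 7.25% of all. Mki67 and Cdk1 carry both, and their stretches are printed with every TTTGAA and CCAAT, on either strand, in capitals. The Mki67 stretch lies at chr1:199952663-199952802 on the minus strand and that of Cdk1 at chr20:19265063-19265302 on the plus strand.
Mki67: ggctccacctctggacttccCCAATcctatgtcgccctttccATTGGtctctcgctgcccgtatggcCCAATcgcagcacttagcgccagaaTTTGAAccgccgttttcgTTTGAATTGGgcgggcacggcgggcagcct
Cdk1: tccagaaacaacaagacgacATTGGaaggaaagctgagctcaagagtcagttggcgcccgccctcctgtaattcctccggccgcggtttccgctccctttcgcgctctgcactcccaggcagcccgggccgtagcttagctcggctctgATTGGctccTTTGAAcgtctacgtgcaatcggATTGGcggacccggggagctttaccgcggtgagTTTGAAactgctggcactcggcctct

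Beyond the markers for which the line is usually scored, most of the actin apparatus was lower in P. Left out of this count were the 8 usual markers, Acta2, Cnn1, Myh11, Myl9, Mylk, Myocd, Smtn and Tagln. Of 49 other genes for actin filaments, dense bodies and focal adhesions, 32 were called lower (65.3%) and 2 higher, with a median log2 fold change of -1.61. Under quantile normalization 30 were lower and the median was -1.44. Gamma smooth muscle actin (Actg2) had 78408, 80285 and 79251 scaled counts in the D1 libraries and 35.4, 38.5 and 21.2 in the P libraries. This was the largest fall among genes with at least 10 scaled counts in P (log2 fold change -11.28, SE 0.054, adjusted p = 8.0e-47), although reads could be split between actins because their coding sequences are similar.

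Several of the falls were in genes with very high levels. Fhl1, a LIM-domain protein of muscle, had 335368, 352094 and 336694 scaled counts in the D1 libraries and 28454, 27614 and 26828 in the P libraries (log2 fold change -3.63, SE 0.028, adjusted p = 1.2e-41). Leiomodin 1 (Lmod1), which nucleates actin filaments in smooth muscle, had 25821, 27183 and 25696 scaled counts in the D1 libraries and 1131, 1086 and 1184 in the P libraries, and nexilin (Nexn), an actin-binding protein of the Z-disc, fell from 12835 ± 361 to 459.6 ± 31.5. Outside the list, Fblim1, which links filamin to adhesions, was among the 10 largest falls of all genes, with 19911, 20645 and 19578 scaled counts in the D1 libraries and 300.1, 255 and 229.8 in the P libraries. Group ranges were far apart for each of these. Broadly used components fell by less: filamin A (Flna) by 3.97 times, vinculin (Vcl) by 3.52 times, alpha-actinin 1 (Actn1) by 3.69 times and tropomyosin 1 (Tpm1) by 4.66 times.

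The exceptions on the list were desmin (Des), the muscle intermediate filament, and the small heat shock protein gene Hspb8. Desmin, itself a marker of smooth muscle, was higher in P, with 232, 243 and 212 scaled counts in the D1 libraries and 1204, 1168 and 1227 in the P libraries (log2 fold change 2.39, SE 0.077, adjusted p = 5.0e-24). Hspb8, a chaperone of muscle cells, rose from 4955 ± 224 to 12546 ± 206. Of 8 other tested genes on the intermediate filament list, which leaves out the keratins, 2 were higher in P, both of neurons: peripherin (Prph), at 186 against 53.8 scaled counts, and the heavy neurofilament Nefh, at 70.5 against 2.79. Keratin 8 (Krt8), of simple epithelia, was also higher, at 7354 against 3275. Vimentin (Vim), the main filament of mesenchymal cells, and nestin (Nes) had log2 fold changes of 0.20 and 0.60 and were not called.

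CArG boxes, the SRF sites, were found in the promoter windows of 5 of 42 genes on this actin list (11.9%), in 1.34% of the 11991 promoters of tested genes and in 1.64% of all promoters. Of the 5 genes, 4 were called lower in P, on a list of which 65.3% were lower. Ldb3, the fifth, had a log2 fold change of 0.72. Among all 161 tested genes with a CArG box in the window, 28 were lower (17.4%) and 19 higher (11.8%), beside 11.2% and 16.4% of all genes. A match is a description of these letters and no sign of binding. The stretches around the boxes of the 4 genes, and of Srf itself, which carries 2, are shown with the boxes in capitals. They lie at chr19:68784259-68784308 (minus strand) for Acta1, chrX:139638374-139638423 (plus) for Fhl1, chr9:52954606-52954655 (minus) for Fhl2, chr7:10370354-10370403 (minus) for Cnn2 and chr9:21923975-21924044 (plus) for Srf on GRCr8.
Acta1: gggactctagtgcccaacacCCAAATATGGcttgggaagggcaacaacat
Fhl1: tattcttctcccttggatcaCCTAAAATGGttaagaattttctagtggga
Fhl2: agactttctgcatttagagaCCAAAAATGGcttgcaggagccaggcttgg
Cnn2: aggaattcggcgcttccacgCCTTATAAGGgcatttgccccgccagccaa
Srf: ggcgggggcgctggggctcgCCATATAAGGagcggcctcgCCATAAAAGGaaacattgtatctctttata

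Each of these boxes starts between 61 and 102 bases upstream of the annotated start. The genes printed fell to different extents, from -5.88 for the skeletal actin gene Acta1 through -2.90 for Fhl2 to -1.03 for calponin 2 (Cnn2).

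Myocardin (Myocd) is one of the 8 markers set aside above. Srf had 8952, 8378 and 8599 scaled counts in the D1 libraries and 3607, 3742 and 3746 in the P libraries (log2 fold change -1.22, SE 0.032, adjusted p = 1.0e-26), and 6 of 26 genes on the list of SRF, KLF, TEAD and YAP factors were lower in P and 2 higher, Klf10 and Klf5, a share called of 30.8% that is near the 27.6% of all genes. Klf5, a factor of proliferating smooth muscle, rose from 4.89 to 57.6 (log2 fold change 3.53). The cofactor Vgll3 fell from 13449 ± 660 to 3769 ± 112 and the DNA-binding partner of YAP Tead3 from 6527 ± 34.9 to 2290.4 ± 57.8. Klf4, which represses contractile genes, had overlapping values of 9163, 8218 and 8887 scaled counts in the D1 libraries and 8602, 9419.9 and 9100.4 in the P libraries. Yap1 had a log2 fold change of -0.29 and was not called, while Klf10, an early target of TGF-beta, was higher with 1.44.

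**Figure D2:**
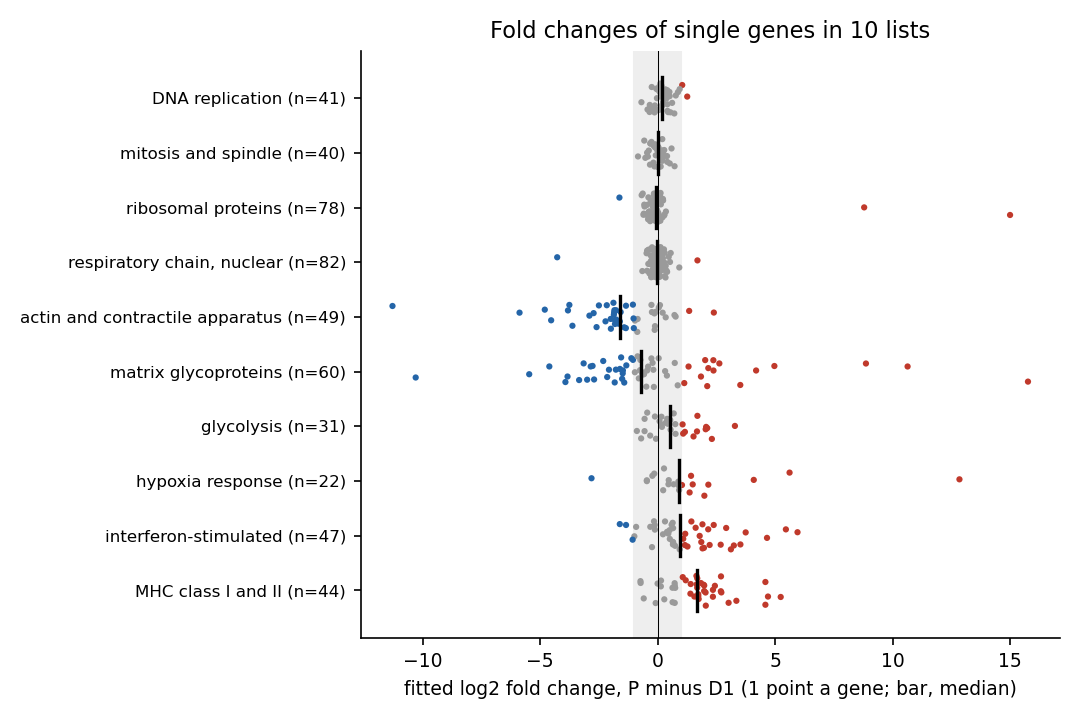
Log2 fold change of P minus D1 (x axis) for each tested gene of 10 gene lists (1 row a list, 1 point a gene; vertical jitter carries no value), with red points called higher, blue points called lower, grey points not called and a black bar at the median. Mitosis, ribosomal protein and respiratory chain genes sit almost wholly inside the shaded 2-fold band, whereas the actin list is centred at -1.61 and the MHC list at 1.68.

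Genes for vessel tone and excitability were lower in P in part and higher in part. Of 37 receptors and signalling proteins for vasoactive ligands, 17 were lower (45.9%) and 11 higher (29.7%), beside 11.2% and 16.4% of all genes. The soluble guanylate cyclase subunit Gucy1b1, the nitric oxide receptor, fell from 99444 ± 3381 to 13268 ± 92.4, and Irag1, a target of cGMP kinase on calcium stores, had 25415, 27156 and 25323 scaled counts in the D1 libraries and 219.9, 176 and 202 in the P libraries. The thromboxane receptor Tbxa2r had 5055, 5049 and 5140.3 scaled counts in the D1 libraries and 437, 433 and 479.7 in the P libraries (log2 fold change -3.50, SE 0.048, adjusted p = 9.1e-35). Pde1a, a phosphodiesterase activated by calmodulin, was lower by 98.2 times. The angiotensin receptor Agtr1a and the endothelin receptor Ednra had log2 fold changes of -1.91 (SE 0.13) and -1.50 (SE 0.04).

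Higher in P were Npr1, the receptor for atrial natriuretic peptide, and Ptgir, the prostacyclin receptor. Npr1 had 49.8, 10.5 and 29 scaled counts in the D1 libraries and 1084, 1154 and 1066 in the P libraries (log2 fold change 5.20, SE 0.15, adjusted p = 5.1e-25). Ptgir had 81, 103 and 76.7 scaled counts in the D1 libraries and 491, 482 and 610.5 in the P libraries. The bradykinin receptor genes Bdkrb1 and Bdkrb2 were also higher, with means of 367 against 2.8 and of 333 against 9.7 scaled counts. These counts were low in D1, and the P libraries lay above the D1 libraries for each of the 4 genes.

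Potassium channel genes included 17 called higher (40.5%) and 6 lower (14.3%) of 42 tested, out of 93 in the table. The shares over all genes were 16.4% and 11.2%. The median log2 fold change of these channel genes was 0.23 and turned to -0.20 under quantile normalization. There 13 were higher and 11 lower, so that no common direction is given. The 6 lower calls became 10 without P replicate 1 and 11 without P replicate 3. Kcnmb1, the subunit that tunes calcium-activated BK channels in smooth muscle, had 322, 274 and 334 scaled counts in the D1 libraries and 0, 1.93 and 0 in the P libraries, a ratio of D1 to P of 484 with a 95% exact counting interval from 134 to 4005. The pore subunit Kcnma1 was too low to be tested, at 14.6 scaled counts in D1 and 2.56 in P. Kcnh2, the ERG channel, had 10267, 10961 and 10371 scaled counts in the D1 libraries and 977, 913 and 958 in the P libraries. In the other direction the inward rectifier Kcnj2 rose from 11.8 ± 3.18 to 649 ± 58.2 and Kcnd3, which carries transient outward current, from 625 to 5190.1. The modifier subunit Kcng3 had no count in D1 and was at least 603-fold higher in P, computed against a floor of 3 counts per library.

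Calcium release channels of the same family moved in opposite directions. Ryr1, the ryanodine receptor of skeletal muscle, had 41.5, 25.2 and 25.9 scaled counts in the D1 libraries and 2115, 2139 and 2124 in the P libraries (log2 fold change 6.10, SE 0.10, adjusted p = 2.5e-32), and the cardiac form Ryr2 fell from 111 to 19.8. The inositol trisphosphate receptor Itpr2 rose from 178 to 3009, while Itpr1 fell from 10541 to 4780.3. Cacna1c, the L-type calcium channel, had 1027, 1089 and 1065 scaled counts in the D1 libraries and 1044, 1072 and 1099 in the P libraries, and its groups overlapped. Trpc6, a receptor-operated cation channel, fell from 8488 ± 164 to 229 ± 8.93. In total 10 of 32 calcium genes were lower (31.25%) and 5 higher (15.6%), beside 11.2% and 16.4% of all genes. The share higher is thus near that of all genes.

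The caveolar coat was altered in single members, with 3 of 10 genes lower (30%) and 1 higher (10%), beside 11.2% and 16.4% of all genes. Muscle caveolin (Cav3) had 11765, 11876 and 11969.9 scaled counts in the D1 libraries and 486, 473 and 492 in the P libraries (log2 fold change -4.62, SE 0.038, adjusted p = 1.1e-40) and Cavin2 fell by 3.98 times, while Cavin4, a muscle form of cavin, rose from 50 to 382 scaled counts. Caveolin 1 (Cav1), the main coat protein, had a log2 fold change of -0.79 and did not pass the fold threshold.

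The composition of the extracellular matrix differed widely, with both a loss of D1 components and a gain of others. Of 60 glycoprotein and proteoglycan genes, 25 were lower in P and 15 higher, against a background of 11.2% and 16.4%. Matrix Gla protein (Mgp), an inhibitor of calcification, had 36073, 38480 and 36998 scaled counts in the D1 libraries and 30.6, 36.6 and 21.2 in the P libraries (log2 fold change -10.30, SE 0.059, adjusted p = 5.4e-45). Aggrecan (Acan), the large proteoglycan of cartilage, had 91.4, 98.6 and 93.3 scaled counts in the D1 libraries and 45291, 42861 and 43872 in the P libraries (log2 fold change 8.86, SE 0.046, adjusted p = 4.7e-46). The group ranges were thus far apart for both genes, in opposite directions.

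Tgfbi, a secreted adhesion protein induced by TGF-beta, was nearly absent from D1, with 4.15, 0 and 2.07 scaled counts in the D1 libraries and 122967, 121516 and 122339 in the P libraries. The ratio of P to D1 was 58702, with a 95% exact counting interval from 26969.7 to 159960 that covers counting error only. Thrombospondin 2 (Thbs2) rose from 2320.5 ± 10.5 to 26544 ± 1054, the latent TGF-beta binding protein Ltbp2 from 1335 ± 75.1 to 24355 ± 315, and the glypican Gpc3 from 11.8 to 373. Lower in P were the microfibril protein Mfap4, with 4239, 4389 and 4031 scaled counts in the D1 libraries and 101, 84.8 and 100 in the P libraries, fibulin 5 (Fbln5), at 12604 against 127850, and fibrillin 1 (Fbn1), at 34397 against 224247.

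Elastin (Eln) itself had 945519, 985610 and 937080 scaled counts in the D1 libraries and 775769, 754695 and 854353 in the P libraries, a log2 fold change of -0.27 (SE 0.03) that was not called. Fibronectin (Fn1) had 1277780, 1274690 and 1250530 scaled counts in the D1 libraries and 403308, 425359 and 420117 in the P libraries (log2 fold change -1.61, SE 0.024, adjusted p = 1.5e-33), and its log2 fold change was -0.84 under quantile normalization, short of the fold threshold. Osteopontin (Spp1), often raised in synthetic smooth muscle cells, was lower in P, with 71469.5, 66843 and 74122 scaled counts in the D1 libraries and 28658, 28097 and 27515 in the P libraries. The matricellular proteins Ccn1 and Ccn2, both targets of YAP, fell from 27688 to 5558 and from 101429 to 12675.

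Collagens were lower in P for single chains of both the fibrils and the basement membrane. Col1a1, the main fibrillar chain, had a log2 fold change of 0.36 (SE 0.028) and was not called. Col3a1 had 2050490, 2121830 and 2100350 scaled counts in the D1 libraries and 771267, 711067 and 775264 in the P libraries, a log2 fold change of -1.47 that became -0.94 under quantile normalization and then missed the threshold. The basement membrane chain Col4a1 had 104701, 109071 and 103130 scaled counts in the D1 libraries and 13485, 13476 and 13899.6 in the P libraries (log2 fold change -2.96, SE 0.027, adjusted p = 1.0e-39), and Col4a2 fell from 94896 to 13750.5. Of 9 fibrillar collagens 4 were lower (44.4%) and none higher. Of 26 others 8 were lower and 8 higher (30.8% each), beside 11.2% and 16.4% of all genes. Col14a1, a collagen that binds fibril surfaces, fell from 97730.1 ± 766 to 8094 ± 208, whereas Col6a3, a chain of the beaded filament, rose from 789 ± 13.8 to 26123 ± 910.

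Enzymes that act on matrix were split, with 12 of 41 higher in P (29.3%) and 13 lower (31.7%), beside 16.4% and 11.2% of all genes. The membrane protease Mmp15 rose from 1553 ± 129 to 15781 ± 36.6 and Mmp2 had 1299.9, 1302 and 1357 scaled counts in the D1 libraries and 2953, 2599 and 2965 in the P libraries (log2 fold change 1.10, SE 0.05, adjusted p = 7.8e-20). Mmp16 fell from 36183 ± 1646 to 3342 ± 139.9, and Timp3, a matrix-bound inhibitor of these proteases, had 3416, 3623 and 3275 scaled counts in the D1 libraries and 648, 601 and 631 in the P libraries. Lox, which crosslinks collagen and elastin, had a log2 fold change of 0.90 and was not called, but reached 1.19 under quantile normalization and was called there.

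Among integrin and laminin genes, which include receptors for this matrix, 8 of 29 were higher (27.6%) and 10 lower (34.5%). The shares over all genes were 16.4% and 11.2%. Itga8, an integrin subunit of contractile smooth muscle, had 550.3, 618 and 560 scaled counts in the D1 libraries and 58.3, 55.9 and 63.5 in the P libraries (log2 fold change -3.28, SE 0.12, adjusted p = 4.5e-22), and Itga1, of a collagen receptor, fell from 18923 ± 319 to 3049 ± 117. Itga9 had 242, 217 and 232 scaled counts in the D1 libraries and 9019, 8944 and 9252 in the P libraries. Of the laminin chains, Lama4 fell from 8414 ± 304 to 2002 ± 70.9, while Lama3 rose from 380.4 ± 27.3 to 9054 ± 256. Itga5, a fibronectin receptor subunit, had a log2 fold change of -0.41 and was not called.

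Among cadherins and connexins 8 of 22 genes were higher (36.4%) and 6 lower (27.3%), beside 16.4% and 11.2% of all genes. Under quantile normalization 5 were higher. N-cadherin (Cdh2) had 2525, 2651 and 2753 scaled counts in the D1 libraries and 7099, 7259.5 and 7503 in the P libraries (log2 fold change 1.46, SE 0.035, adjusted p = 1.2e-27), and connexin 43 (Gja1), which couples neighbouring cells electrically, had 8952, 8643 and 8881 scaled counts in the D1 libraries and 27189, 26816 and 27046 in the P libraries (log2 fold change 1.61, SE 0.025, adjusted p = 5.4e-33). Cdh11 and Cdh3 were lower, with log2 fold changes of -1.54 and -1.95.

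**Figure D3:**
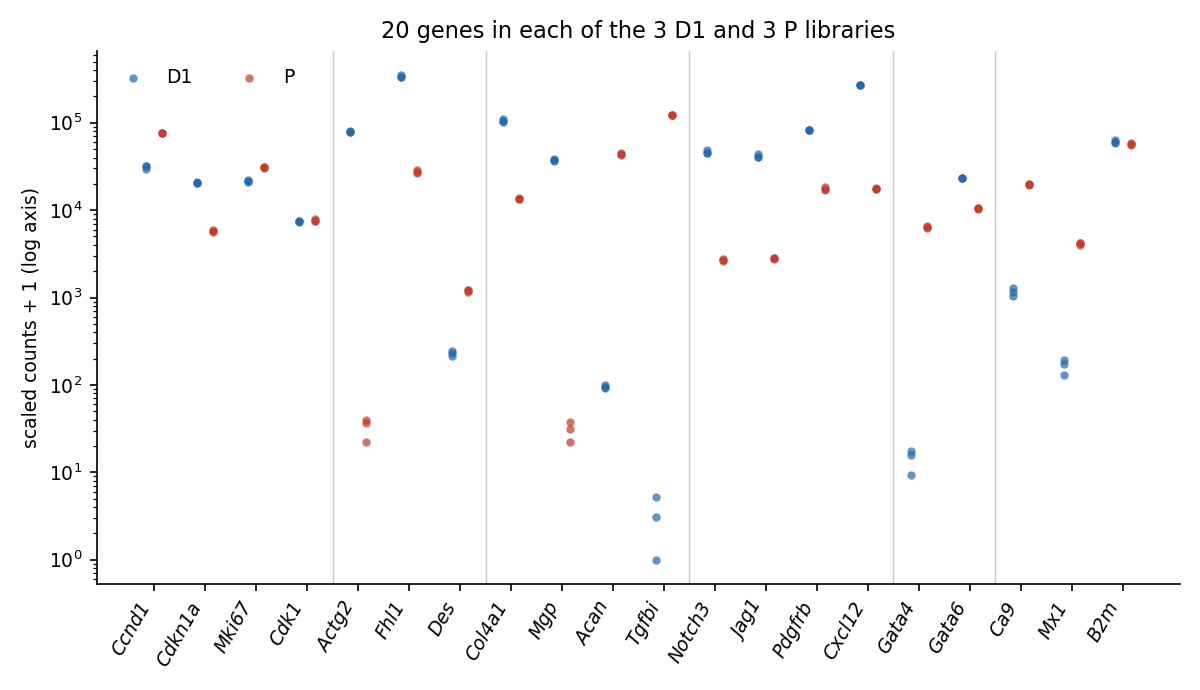
Scaled counts plus 1 (y axis, log scale) of 20 genes in each of the 3 D1 libraries (blue) and 3 P libraries (red), 1 point a library; grey lines separate genes of cell cycle, contractile apparatus, matrix, signalling, lineage factors and responses. Points of a group nearly coincide for most genes, Cdk1 overlaps between groups and the other genes do not, and Tgfbi is at or near 0 in D1 and at a mean of 122274 in P.

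Notch signalling genes were called in both directions. Notch3, the receptor of arterial smooth muscle, had 45274, 48927 and 44553 scaled counts in the D1 libraries and 2588, 2710.4 and 2778 in the P libraries (log2 fold change -4.10, SE 0.035, adjusted p = 1.6e-40), and its ligand Jag1 had 40631, 43596 and 40609 scaled counts in the D1 libraries and 2806, 2729.7 and 2815 in the P libraries (log2 fold change -3.90, SE 0.032, adjusted p = 5.0e-41). Hey2, a transcriptional target of Notch, fell from 25153 ± 434 to 3177 ± 19.7, and Heyl was lower at 46.7, 44.1 and 56 in D1 and 0, 0.963 and 0 in P, a ratio of D1 to P of 153 (95% counting interval 27 to 6083). On the whole list 5 of 20 genes were called lower and 5 higher (25% each), beside 11.2% and 16.4% of all genes. The median log2 fold change was -0.37. Under quantile normalization 7 were lower and 4 higher, and the median was -0.52. Higher were Lfng, a glycosyltransferase that modifies Notch receptors, at 5253 against 969, the coactivator Maml3 at 1645 against 189, and Hes1, another target, at 4049.7 against 758.

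In the TGF-beta and BMP families 15 of 48 genes were higher in P (31.25%) and 12 lower (25%), beside 16.4% and 11.2% of all genes. Tgfb1 had 9133, 9359.8 and 8717 scaled counts in the D1 libraries and 23447, 24962 and 24109 in the P libraries (log2 fold change 1.41, SE 0.029, adjusted p = 7.0e-30), whereas Tgfb2 fell from 42444 to 8849. The Id genes, which respond to BMP and block bHLH factors, did not move together. Id1 had 468, 450.2 and 432 scaled counts in the D1 libraries and 3391, 3418 and 3234 in the P libraries (log2 fold change 2.89, SE 0.053, adjusted p = 4.0e-31) and Id2 rose from 457 ± 13.7 to 5262 ± 147, but Id4 fell from 11883 ± 204 to 2378 ± 125. The ligand Gdf6 fell from 13568 to 1271, and Bmp4 had a log2 fold change of -0.27 and was not called.

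Wnt pathway genes included 18 of 46 higher (39.1%) and 11 lower (23.9%), beside 16.4% and 11.2% of all genes. Nkd1, an inhibitor and target of Wnt signalling, had 35.3, 34.6 and 20.7 scaled counts in the D1 libraries and 5765, 5391 and 5654 in the P libraries (log2 fold change 7.53, SE 0.08, adjusted p = 8.3e-38). Axin2, another common target, went the other way, with 518, 548 and 536 scaled counts in the D1 libraries and 117, 104 and 119 in the P libraries (log2 fold change -2.24, SE 0.11, adjusted p = 8.2e-19). The receptors Ror1 and Ror2 moved in opposite directions: Ror1 fell from 5724 ± 42 to 375 ± 32.3 and Ror2 rose from 121 ± 32.8 to 2373 ± 15.3. Wnt5a had 2211, 2478 and 2217 scaled counts in the D1 libraries and 2516, 2500.4 and 2390 in the P libraries, overlapping between groups.

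Growth factor ligand, receptor and binding protein genes went both ways, with 20 of 60 higher (33.3%) and 21 lower (35%). The shares over all genes were 16.4% and 11.2%. Pdgfrb, the PDGF receptor of mural cells, had 83222, 81990.4 and 82580.2 scaled counts in the D1 libraries and 18258, 16948 and 17636 in the P libraries (log2 fold change -2.23, SE 0.026, adjusted p = 1.7e-36), and Igf1r fell from 8819 to 3123. Higher in P were Met, the receptor for hepatocyte growth factor, at 5099 against 1814, its ligand Hgf at 713 against 55.2, and Erbb2 at 6933 against 2896. Among neurotrophin genes Ntrk3 fell from 960.2 ± 16.6 to 20.5 ± 4.42, and its ligand Ntf3 had 192, 199 and 208 scaled counts in D1 and none in P, at least 69.4-fold lower. IGF-binding proteins diverged, with Igfbp7 at 62678, 64239 and 61327 scaled counts in the D1 libraries and 2789, 2591 and 2659 in the P libraries and Igfbp4 at 382, 317 and 353 scaled counts in the D1 libraries and 9356, 9061 and 9939.7 in the P libraries.

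Guidance molecules known from axons and vessels were called in both directions, 19 of 55 higher (34.5%) and 16 lower (29.1%), beside 16.4% and 11.2% of all genes. Under quantile normalization 15 were higher and 18 lower. Sema3a, a repellent ligand, rose from 599.5 ± 25.6 to 3616 ± 38.3 and the receptor Ephb4 from 10.4 ± 3.64 to 572 ± 13.7, whereas Slit3 fell from 1253 ± 44.8 to 114 ± 14.5. The semaphorin coreceptors Nrp1 and Nrp2 moved apart, Nrp1 from 25895 to 7095 and Nrp2 from 3271 to 24781.

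Of 47 interferon-stimulated genes 23 were higher in P (48.9%, beside 16.4% of all genes) and 3 lower, with a median log2 fold change of 0.94, or 0.72 under quantile normalization. The antiviral GTPase gene Mx1 had 190, 173 and 129.6 scaled counts in the D1 libraries and 4227, 3996 and 4179 in the P libraries (log2 fold change 4.65, SE 0.069, adjusted p = 1.1e-33). Oas1a, which makes the activator of RNase L, had 20.8, 29.4 and 18.7 scaled counts in the D1 libraries and 1486, 1403 and 1384 in the P libraries, and the transcription factors Irf7 and Irf1 had log2 fold changes of 1.27 and 1.86. Exceptions were Ifit3, with 55, 64 and 62.2 scaled counts in the D1 libraries and 17.2, 25 and 28.8 in the P libraries, Ifit1bl, at 158 against 484, and Gbp1, at 143 against 300.3.

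Of 44 MHC and antigen processing genes 30 were higher in P (68.2%) and none lower, with a median of 1.68; under quantile normalization 27 were higher and 2 lower. The RT1 genes made up 24 of the 30 higher genes, out of 30 RT1 genes tested, and 6 of the 14 other genes were higher. RT1 names the rat MHC genes of both classes, and many of those of class I are near-identical copies between which reads may be divided, so that the 24 are not separate measurements. The immunoproteasome subunit Psmb9 had 466, 546 and 581 scaled counts in the D1 libraries and 5244, 5511 and 5478 in the P libraries (log2 fold change 3.35, SE 0.052, adjusted p = 3.9e-33), and the peptide transporter Tap1 had 3064, 3209.8 and 3164 scaled counts in the D1 libraries and 7155, 7294 and 7138 in the P libraries (log2 fold change 1.19, SE 0.032, adjusted p = 2.7e-26). The transactivator of class I genes, Nlrc5, rose from 92 ± 5.78 to 746 ± 87.3. Beta-2-microglobulin (B2m), the light chain of every class I molecule, had 60175, 58905 and 62840.1 scaled counts in the D1 libraries and 58839.7, 55413 and 57200 in the P libraries, slightly lower in P and not called. Values of single class I genes, such as RT1-A2 at 7811 against 1530.2, are uncertain for the same reason.

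Chemokine and cytokine genes were called in both directions, 23 of 69 higher (33.3%) and 18 lower (26.1%), beside 16.4% and 11.2% of all genes. Under quantile normalization 17 were higher and 27 lower. Their median log2 fold change was -0.17 and then -0.59. Cxcl12, an attractant for progenitor cells made by stroma, had 267707, 273526 and 270575 scaled counts in the D1 libraries and 17639, 17834 and 17605 in the P libraries (log2 fold change -3.93, SE 0.025, adjusted p = 1.3e-43), and its scavenging receptor Ackr3 rose from 4377 to 21282. The monocyte attractants Ccl2 and Ccl7 fell from 1253 to 145 and from 5672 to 689. Fractalkine (Cx3cl1), another monocyte attractant, had 249, 217 and 226 scaled counts in the D1 libraries and 10078, 11606 and 11334 in the P libraries (log2 fold change 5.57, SE 0.058, adjusted p = 3.5e-38). Il6 was lower, with 212, 207 and 232 scaled counts in the D1 libraries and 86, 92.5 and 87.5 in the P libraries. Complement C3 was near the limit of detection in both groups, its log2 fold change of 1.13 (SE 0.49, adjusted p = 0.036) became 0.068 under quantile normalization, and its call rests on a handful of counts.

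**Figure D4:**
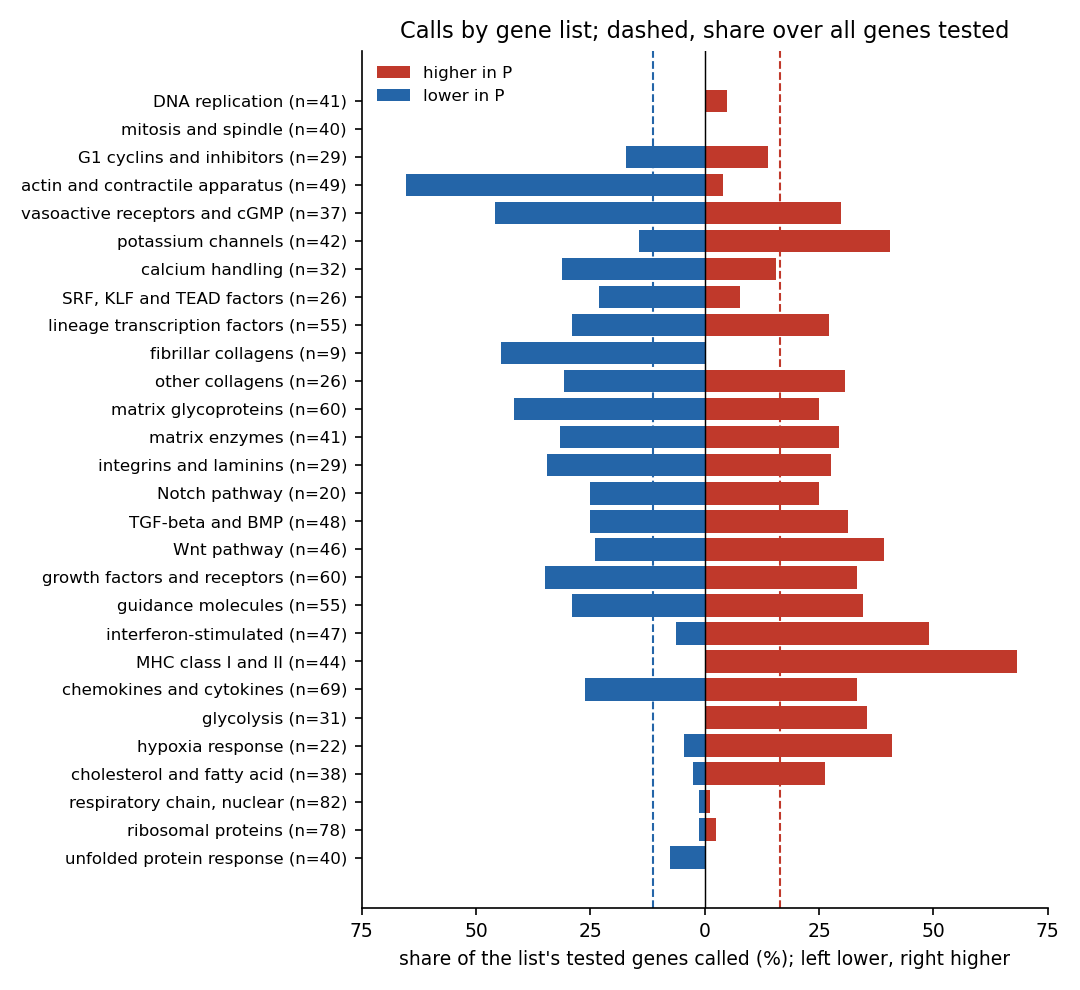
Share of tested genes called lower in P (blue, to the left) and higher in P (red, to the right) in each of 28 gene lists, with the number of tested genes in brackets; x axis in percent, dashed lines at the shares over all genes, 11.2% and 16.4%. Of the lists drawn, the actin list reaches furthest to the left at 65.3% and the MHC list furthest to the right at 68.2% (lists of germ cell and olfactory receptor genes, which are not drawn, had 82.4% and 70.6% higher), while mitosis, respiratory chain and ribosomal protein genes lie close to 0.

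Metabolic genes leaned upward in the glycolytic branch. Of 31 genes for glycolysis and lactate 11 were higher in P (35.5%) and none lower, with a median log2 fold change of 0.53; under quantile normalization 11 were higher and 1 lower. Pgk1 and Tpi1, enzymes of the pathway itself, rose from 43139 ± 276 to 96325 ± 2886 and from 25204 ± 129 to 53458 ± 1419. The glucose transporter Slc2a3 rose from 859.5 to 3591, the lactate exporter Slc16a3 had 74.8, 63 and 58.1 scaled counts in the D1 libraries and 575, 688 and 652 in the P libraries, and Pdk1, which holds pyruvate out of mitochondria, rose from 1855 to 7644. Hexokinase 2 (Hk2) and lactate dehydrogenase A (Ldha) had log2 fold changes of 0.68 and 0.53 and were not called.

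Nuclear genes of the respiratory chain stayed near 0, with 1 of 82 called in each direction, both tissue-restricted forms with few counts (Cox6a2 higher, though not under quantile normalization, and Cox7b2 lower). Ndufs1 had 11109.7, 11019.8 and 10932 scaled counts in the D1 libraries and 10509, 10691 and 10683 in the P libraries, and Atp5f1b, the catalytic subunit of ATP synthase, a log2 fold change of -0.30. Their median was -0.040 and turned to 0.0081 under quantile normalization.

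Genes that respond to low oxygen were higher in 9 of 22 cases (40.9%) and lower in 1 (4.5%), beside 16.4% and 11.2% of all genes. Carbonic anhydrase 9 (Ca9) had 1051, 1167 and 1270.3 scaled counts in the D1 libraries and 20088, 19720.2 and 19567 in the P libraries (log2 fold change 4.09, SE 0.039, adjusted p = 4.7e-39), and the oxygen sensor Egln3 had 0, 0 and 2.07 scaled counts in the D1 libraries and 5849, 6264 and 5923 in the P libraries, a ratio of P to D1 of 8658 (95% counting interval 2396 to 71496). Ero1a, an oxidase of the endoplasmic reticulum, and P4ha2, a collagen prolyl hydroxylase, rose from 7350.2 ± 239.8 to 32762 ± 1423 and from 11361 ± 278 to 31937 ± 282. Hif1a had 10889.6, 10879 and 10966 scaled counts in the D1 libraries and 21860.2, 22922 and 22263 in the P libraries (log2 fold change 1.03, SE 0.026, adjusted p = 2.3e-27), a change that was not past a test against 2-fold, while Epas1, which encodes HIF-2 alpha, had 3219, 3313 and 3128 scaled counts in the D1 libraries and 502, 404 and 466 in the P libraries (log2 fold change -2.82, SE 0.059, adjusted p = 1.6e-29). Vegfa, a target of both, had a log2 fold change of 0.47 and was not called. Several glycolytic genes are themselves targets of HIF-1, so that these lists are not independent descriptions.

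In lipid synthesis 10 of 38 genes were higher (26.3%) and 1 lower (2.63%), and the share called, 28.9%, is near the 27.6% of all genes. Scd, which makes monounsaturated fatty acids, had 5598, 5806 and 5917 scaled counts in the D1 libraries and 30648, 32875 and 31249.6 in the P libraries (log2 fold change 2.45, SE 0.029, adjusted p = 2.4e-36), its regulator Srebf1 rose from 3069 to 10671, and Dhcr7, the last enzyme of cholesterol synthesis, from 2107 to 11200.1. Hmgcs1 and Sqle of the sterol pathway and the fatty acid synthase gene Fasn had log2 fold changes of 0.11, 0.71 and 0.30 and were not called. The desaturase Fads1 was lower, at 5712 against 13511.

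Stress pathways showed no common shift past the threshold. Of 40 genes of the unfolded protein and integrated stress response none was higher and 3 were lower, the transcription factor Atf5, the phosphatase subunit Ppp1r15a and the lipoprotein receptor Vldlr. The chaperone BiP (Hspa5) had 163469, 153044 and 161337 scaled counts in the D1 libraries and 113942, 114695 and 114011 in the P libraries, a log2 fold change of -0.48 that was not called. Of 34 NRF2 genes 2 were higher, Nfe2l2 itself and the exporter Abcc4, and 2 lower, the glutathione transferase Gsta1 and the thioredoxin reductase Txnrd1, of which 1 was left without D1 replicate 3. The call of Txnrd1 was lost under quantile normalization, with -0.97. Nfe2l2, which encodes NRF2, had 11937, 11665 and 11939 scaled counts in the D1 libraries and 28338, 27922 and 27481 in the P libraries (log2 fold change 1.24, SE 0.025, adjusted p = 6.8e-30), and its targets Nqo1 and Hmox1 had log2 fold changes of 0.68 and -0.31. Of 22 immediate early genes 6 were higher and 3 lower, or 5 and 4 under quantile normalization, with Fos lower at 851, 787 and 725 scaled counts in the D1 libraries and 288, 323 and 329.8 in the P libraries, Dusp1, a phosphatase that ends MAP kinase signals, lower at 1386 against 8339, and Dusp5 higher at 2003 against 396.

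Cytosolic ribosomal protein genes varied little, apart from some paralogs. Of 78 genes 2 were higher and 1, the muscle paralog Rpl3l, was lower with few counts, while 2 were lower under quantile normalization. Rplp0, of the ribosomal stalk, had 92065, 94889.5 and 96389.7 scaled counts in the D1 libraries and 90485, 88756 and 90102 in the P libraries. The higher genes were Rpl10l and Rpl39l, copies used in the testis. Rpl10l had no count in D1 and 4082, 4033 and 4120.5 scaled counts in P, at least 1305-fold higher, and Rpl39l rose from 8.33 ± 2.07 to 3735 ± 76.4.

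Of 55 transcription factors of cell lineage 15 were higher (27.3%) and 16 lower (29.1%), beside 16.4% and 11.2% of all genes. Their median log2 fold change of 0.060 turned to -0.044 under quantile normalization. Gata4, a factor of heart and gonad, had 16.6, 14.7 and 8.3 scaled counts in the D1 libraries and 6320.3, 6553 and 6460.4 in the P libraries (log2 fold change 8.92, SE 0.084, adjusted p = 2.4e-39), the second largest rise among genes with at least 10 scaled counts in D1. Gata6, the GATA factor of vascular smooth muscle, had 23622, 23479 and 23575 scaled counts in the D1 libraries and 10440.2, 10549 and 10377 in the P libraries (log2 fold change -1.17, SE 0.025, adjusted p = 2.0e-29). Tbx18, of mural progenitors, fell from 17911 to 6269, and Hand2 from 2251 to 384. Sox9 and Runx2, which direct cartilage and bone formation, rose from 529 ± 85.8 to 2324 ± 42.3 and from 107 ± 13.4 to 333 ± 6.06. Foxf1, a factor of lung mesenchyme, had 1698, 1849.9 and 1902 scaled counts in the D1 libraries and 1840.1, 1653 and 1784 in the P libraries and overlapped.

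Homeobox cluster genes carry a record of a cell's position along the body axis. Of 38 such genes counted, 20 were tested, and 8 of these were lower (40%) and 3 higher (15%). The shares over all genes were 11.2% and 16.4%, so the share higher is near that of all genes. Hoxd8 had 485, 589 and 460.4 scaled counts in D1 and no count in P, at least 178-fold lower, and Hoxc6 likewise had 134, 122 and 97.5 in D1 and none in P, at least 40.9-fold lower. Hoxa11 had 12.5, 12.6 and 8.3 scaled counts in the D1 libraries and 323, 334 and 358 in the P libraries (log2 fold change 4.91, SE 0.20, adjusted p = 7.1e-21). Hoxa5, an anterior gene expressed in lung, fell from 1922 ± 151 to 822 ± 13.8, and Hoxb7 was called higher at 1.16, but had 0.71 under quantile normalization and was not called there. Both directions thus occurred within the A cluster, where Hoxa3 and Hoxa4 were lower. In the B cluster Hoxb2 and Hoxb4 were lower, while the higher call of Hoxb7 was also lost in the test against 2-fold.

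Many genes normally active in germ cells were detected in P and at far lower counts, or not at all, in D1. Of 65 such genes counted, 34 were tested, and 28 of these were higher and 3 lower; those not tested had too few counts, and a gene that passed the filter through its P counts alone had to differ, so the count supports nothing further. The transcription factors Sohlh1 and Sohlh2, which act early in germ cell differentiation, had means of 16536 and 17959 scaled counts in P and of 5.19 and 0.692 in D1. Tex101, a surface protein of germ cells, was already present in D1 and had 1535, 1645 and 1622 scaled counts in the D1 libraries and 63815, 64099 and 62051 in the P libraries. Of the synaptonemal complex, Sycp3 rose from 25.6 ± 10.7 to 3375 ± 266 and Sycp1 from 0.691 to 2758. Mael, of the piRNA pathway, had no D1 count and 3398, 3323 and 3237 scaled counts in P, at least 1062-fold higher. Piwil2, which binds piRNAs, had 61.3, 58.8 and 81.9 scaled counts in the D1 libraries and 15757, 15995 and 15713 in the P libraries (log2 fold change 7.87, SE 0.055, adjusted p = 8.0e-43), and the helicase gene Ddx4 had 2.08, 0 and 0 scaled counts in the D1 libraries and 5218, 5090.4 and 5165 in the P libraries, a ratio of 7429 with a counting interval from 2056 to 61349. Dazl, another defining germ cell gene, was at or near 0 in all 6 libraries, and Sycp2, of the same complex as Sycp3, was lower, at 8.32 against 75.3.

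Of 34 Polycomb and DNA methylation genes, 1 was higher and 2 were lower. Dnmt3b, a de novo DNA methyltransferase, had 249, 359.9 and 248 scaled counts in the D1 libraries and 838, 854 and 799.9 in the P libraries (log2 fold change 1.54, SE 0.097, adjusted p = 8.1e-16), Tet1, which oxidises methylcytosine, fell from 1473 ± 98.9 to 652 ± 17.6, and Bmi1 of Polycomb complex 1 fell from 8024 ± 80.3 to 3895 ± 78.7. Dnmt3a and Ezh2 had log2 fold changes of -0.91 and -0.29. Imprinted genes moved both ways, with 5 of 17 higher and 5 lower (29.4% each), beside 16.4% and 11.2% of all genes. Under quantile normalization 4 were higher and 6 lower. Peg10 and Sgce, which lie side by side and are expressed from the paternal copy, fell from 8933 ± 371 to 1741 ± 60.2 and from 5728 ± 198 to 1521 ± 49.9, while Grb10, an adaptor that damps insulin signalling, rose from 25624 ± 898 to 67679 ± 1040. The list's median log2 fold change of 0.13 turned to -0.27 under quantile normalization. The long RNA H19 varied within P, with 2.08, 4.2 and 0 scaled counts in the D1 libraries and 43, 66.5 and 153 in the P libraries. On the Y chromosome 2 of 5 tested genes were higher, the ubiquitin pathway genes Usp9y, at 2445 against 0.7, and Uba1y, at 6116 against 35.1.

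Rbpms, the RNA-binding protein on which the series centres, was the only called-lower gene among 53 splicing regulators, and 10 were higher (18.9%, near the 16.4% of all genes); under quantile normalization 5 were lower and 10 higher, and without D1 replicate 1, P replicate 1 or P replicate 2 the lower genes were 2. It had 13827, 14110 and 12754 scaled counts in the D1 libraries and 856, 864 and 843 in the P libraries (log2 fold change -3.99, SE 0.04, adjusted p = 1.3e-38). Celf2, which often opposes MBNL proteins, had 2194, 2482 and 2278 scaled counts in the D1 libraries and 11760.3, 12060 and 12202 in the P libraries (log2 fold change 2.37, SE 0.035, adjusted p = 9.2e-34), and Mbnl3 rose from 1492 ± 45.6 to 6196 ± 119. Ptbp1, a repressor of exons in smooth muscle, had a log2 fold change of -0.26 and was not called.

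On the list of lysosome and lipid uptake genes 9 of 31 were higher (29.0%) and 4 lower (12.9%), beside 16.4% and 11.2% of all genes. The VLDL receptor gene Vldlr, abundant in D1, had 112741, 118689 and 114875 scaled counts in the D1 libraries and 20049, 21065 and 19735 in the P libraries (log2 fold change -2.51, SE 0.027, adjusted p = 1.5e-37), and the scavenger receptor Cd36 fell from 61.8 ± 7.98 to 9.92 ± 3.85. Scarb1, the receptor for high-density lipoprotein, was higher at 2886, 3135 and 3058 scaled counts in the D1 libraries and 10295, 10721 and 10749 in the P libraries, and the cholesterol exporter Abca1 had a log2 fold change of 0.38 and was not called.

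Markers of cell types were summed in each library to check the labelled tissue. Of 11 smooth muscle markers, which include the 8 named above, 10 were lower in P and desmin was higher, and all 11 were above 3 counts in both groups. Their summed level ranged from 990427 to 1039080 in D1 and from 21314 to 22527 in P. Of 10 chondrocyte and osteoblast markers 4 were higher, and their sum was between 1012 and 1253 in D1 and between 45953 and 48401 in P, nearly all of the latter Acan. The others higher were Sox9 and Runx2, given above, and Col10a1, the collagen of hypertrophic cartilage, at 108 against 47.6. The defining genes Col2a1, Ibsp, Sp7 and Alpl had means under 10 scaled counts in both groups.

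Of 10 endothelial markers 5 were higher in P, and their sum was between 169 and 173 in D1 and between 4801 and 4915 in P. Esam, a junction protein, made up most of it, at 3472 against 9.03 scaled counts, with the transcription factor Erg at 813 against 92. The others called higher were VE-cadherin (Cdh5), with no count in D1 and 124 in P, at least 39.5-fold higher, the angiopoietin receptor Tek, at 319.8 against 24.3, and von Willebrand factor (Vwf), at 102 against 41.3. Emcn and Cldn5 were at 0 in all 6 libraries, and Pecam1 and Kdr had means of at most 5.13 scaled counts in either group. Leukocyte markers summed to between 5305 and 5672 in D1 and between 4441 and 4674 in P, almost entirely Cd14, with the means of Ptprc, Itgam and Tyrobp at or under 3 scaled counts and the T cell gene Cd3e called higher at 17.3 against 4.86. The other markers were epithelial, of which 1 of 8 was higher, namely keratin 8 (Krt8), pericyte, of which 3 of 7 were lower, fibroblast, of which 1 of 10 was lower, neural, of which none of 8 was called, skeletal and cardiac muscle, of which 1 of 10 was lower, and adipocyte, of which 1 of 6 was higher and 1 lower. The part of any other cell type in the results above was not tested.

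**Figure D5:**
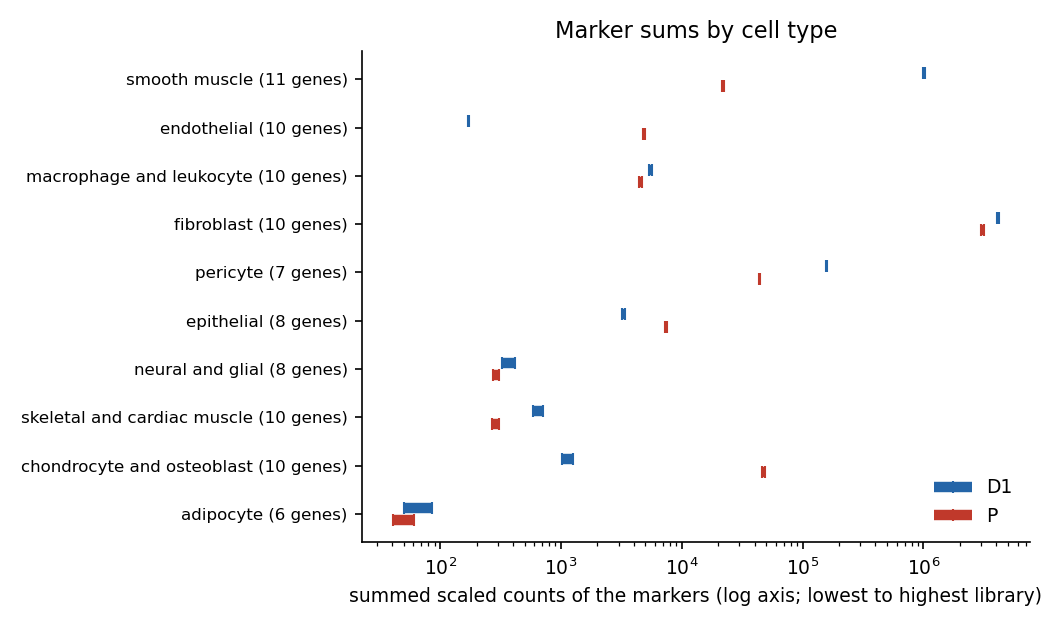
Summed scaled counts of the markers of 10 cell types (x axis, log scale; 1 row a cell type with its number of genes), drawn as bars from the lowest to the highest of the 3 libraries of D1 (blue) and of P (red). Smooth muscle markers are the most reduced in P, fibroblast markers sum to at least 2983310 in every library, and chondrocyte and endothelial sums are higher in P.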

How the data were processed

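Poly(A) RNA of 3 P and 3 D1 libraries was sequenced with a directional library kit, per the labels. The authors brought all libraries to an equal number of reads, aligned them with STAR 2.7.11b to mRatBN7.2 and deposited featureCounts counts per RefSeq gene symbol, after FastQC 0.11.9 and MultiQC 1.14. The strand setting is not given in the sources used here. Total counts exceed the number of reads that the methods give per library, and counts of up to 20 were 2.39 to 2.60 times as frequent at even values as at the neighbouring odd values, so at least some fragments were counted more than 1 time and intervals from counts, which cover counting error only, are too narrow. The authors also deposited a signal table of 19812 genes, made with noisyR noise correction and quantile normalization, with 35 as its smallest value, which served as an alternative.

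Counts as deposited were fitted with edgeR 4.0.16 (R 4.3.3; filterByExpr, TMM, quasi-likelihood test, group as the only term) on the 6 libraries, and p-values were adjusted by Benjamini-Hochberg over all genes tested. Of 33294 genes, 9184 had no count and 7296 had too few. Where a fold is printed for a gene with a mean at or under 3 counts in a group, it is a bound, or a ratio with a 95% exact counting interval; others are given by their means. Alternatives were median-ratio and quantile scaling, other filters and thresholds, DESeq2 1.42.0, limma 3.58.1 on log2 of the deposited signal with no pseudocount, a fit of all 12 libraries, a replicate block, a test against 2-fold, halved and thinned counts, and leaving out each library. Tables and figures were made with Python 3.11.15, numpy 2.4.6, pandas 2.3.3, scipy 1.17.1 and matplotlib 3.10.9.

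The 41 gene lists, which hold 3251 different genes, the promoter motifs and the comparison itself were chosen with earlier results of these data known, so no list supports a direction by itself. Lists are described by counts and medians of their tested genes. Genes were named as representatives of a list, or as the up to 2 called genes with the largest change in each direction in a list (groups not overlapping, with a mean of 200 scaled counts or more where the gene was higher and of 10 or more where it was lower), or as the 10 with the largest change over all genes, or the 10 with the most counts among genes at 0 in the other group. Other list members that the text names were chosen after their values were seen. Some genes that the rule selects are not reported here.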

Additional observations from a re-analysis of the deposited data

How the results depend on the processing

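The 4641 calls became 2933 when at least 10 counts were required in every library, with 1509 genes higher in P, a filter that by construction removes genes absent from 1 group, and 13103 with no fold threshold, 6788 higher and 6315 lower. The limma fit of the deposited signal, whose smallest value of 35 compresses the change of weak genes, called 1582 genes higher. Leaving out each library in turn gave 4757 to 4831 calls, 2777 to 2908 higher and 1901 to 1985 lower. The set of genes tested changed as well, to between 17105 and 17196 in place of 16814. Counts without a library, also those of lists, may therefore cover other genes. The replicate numbers did not pair the libraries, since deviations of same-numbered libraries correlated at -0.013, 0.013 and -0.0043, and the fit with the replicate block called 4593 genes, 2730 higher and 1863 lower. DESeq2 called 4549 genes, median-ratio scaling 4639, the fit of all 12 libraries 4855, the test against 2-fold 3739, halved counts 4063, counts thinned to 25 percent 3523, an adjusted p under 0.01 4488, and no filter 5358. No gene called in the fit as reported was called in the opposite direction under any of these 13 alternatives or without any library. The stricter adjusted p, the absence of a fold threshold and the test against 2-fold keep the same fitted fold changes. These settings could therefore not reverse a call. Of 231 named genes tested, 225 kept their side of the threshold under quantile scaling and 223 in the test against 2-fold, where Bmi1, C3, Gbp1, Hif1a, Hoxb7, Ifit3, Pola1 and Txnrd1 were no longer called. Depth limits single values most where counts are few, though halved and thinned counts were not split by level. The libraries of a group were so alike (common biological coefficient of variation 2.88%) that small differences passed the test.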

Other observations

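Some called genes lay next to each other. Over 14800 tested genes matched to a gene order, 83 runs of at least 4 neighbours were called in the same direction. Of these runs 61 were higher and 22 lower in P. The 27.6% of all tested genes called is no reference for such runs, and no expected number of runs was computed. The longest run held 17 genes of the RT1-CE class I region, some without a name of their own, with a median log2 fold change of 1.84, in which reads may be divided between near-identical copies. A run of 6 genes higher in P joined receptors of the interleukin-1 family, among them Il1r1, Il1rl1 and Il18r1, with a median of 4.47. Another of 7 genes ran from Nod2 through Nkd1 to Adcy7, with a median of 4.43, and one of 8 from Kctd17 to Card10 included Rac2 and Cyth4, with a median of 3.40. The lower run with the most genes, 8 from Plod2 to Chst2, had a median of -1.99. Neighbouring and overlapping genes can share reads, and the part of this in the runs was not tested.

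Genes for lncRNA and snoRNA, which give no protein product, were called at other rates than protein-coding genes. Of 1294 tested lncRNA genes 44.7% were called, 351 higher and 228 lower, and of 13319 protein-coding genes 25.9%. The share called depends on level, with 48.0% under 100 scaled counts and 16.3% above 10000. The part of level in these rates was not tested. The 88 tested snoRNA genes counted 5 higher and 24 lower, with a median log2 fold change of -0.67. Most snoRNAs lie in introns of other genes and lack a poly(A) tail, and the part of host genes and of RNA selection in these counts was not tested.

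Of 1385 olfactory and vomeronasal receptor genes in the table, 1235 had no count in the 6 libraries, and 17 were tested, with 12 higher and 2 lower. The highest group mean among those called was 59.5 scaled counts, and a gene that passed the filter through its P counts alone had to differ.

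Further genes without a count in D1 were the protease Bace2, at least 1222-fold higher in P, the ubiquitin ligase Rnf130, at least 905-fold, the transporter Slc6a17, at least 635-fold, and Rbm46, an RNA-binding protein of meiosis, at least 3039-fold. Without a count in P were Fam78b, at least 956-fold lower, the muscle protein Sh3bgr, at least 61.7-fold, and the activity-regulated transcription factor Npas4, at least 50.1-fold.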
